A study of Mus musculus with 14 samples.

Results

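The receptors described here are integrin αV and the β chains it can pair with: Itgav, Itgb1, Itgb3, Itgb5, Itgb6 and Itgb8. They were chosen by gene name, 6 of the 32289 genes and 25 of the 94714 transcripts in the deposited tables. Bulk RNA was sequenced from ascending aortic tissue of mice labelled C57BL/6 and killed in week 6 of the model. Of the 14 libraries, 4 came from mice given BAPN and SB273005, 3 from mice given BAPN and Cilengitide, 4 from mice given BAPN alone and 3 from mice given PBS. BAPN (β-aminopropionitrile) blocks lysyl oxidase, the enzyme that cross-links collagen and elastin, and is used to cause thoracic aortic aneurysm in mice. SB273005, an orally active small molecule, and Cilengitide, a cyclic peptide with an RGD motif, are both αV integrin inhibitors, and both are known for binding αVβ3 and αVβ5. The labels give no dose, sex or starting age, and both inhibitor groups also received BAPN, so neither drug was given without it. Nothing in the labels says that each library came from a separate animal, so p-values measure the spread between these libraries.

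An integrin is a dimer of an α and a β chain that spans the membrane, binds matrix outside the cell and couples to actin inside it. αV needs a β partner, and its dimers bind fibronectin, vitronectin, osteopontin and the latency peptide of TGF-β through an RGD motif, where αVβ6 and αVβ8 are best known for releasing active TGF-β. β1 also pairs with many other α chains, and β3 also with αIIb on platelets. In arteries β1, β3 and β5 link smooth muscle cells to the matrix, and αVβ3 is known from injured vessels and from osteoclasts.

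The β chains differ at the end that lies inside the cell, where talin and kindlin bind NPXY motifs or the looser NXXY form, which lacks the proline. The ends below were read from GENCODE vM21 transcripts on mm10. They are shown because both Itgb1 ends were measured as separate transcripts and because Itgb3 and Itgb5 differed in how their RNA varied. Each line gives the last 96 coding bases, stop codon included, 5′ to 3′, with the codons of an NPXY motif in capitals (AAT or AAC, CCN, NNN, then TAT or TAC, read in frame on the coding strand). On mm10, introns included where the stretch spans one, they lie at chr8:128726157-128732088 and chr8:128726166-128727057 for Itgb1, chr11:104665603-104667145 for Itgb3 and chr16:33948657-33948752 for Itgb5, all on the plus strand.
Itgb1 common end (beta 1A): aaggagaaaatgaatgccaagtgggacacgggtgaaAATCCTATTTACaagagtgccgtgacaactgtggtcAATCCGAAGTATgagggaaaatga
Itgb1 muscle exon (beta 1D): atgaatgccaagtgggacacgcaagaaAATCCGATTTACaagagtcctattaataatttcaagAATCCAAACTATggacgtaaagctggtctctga
Itgb3: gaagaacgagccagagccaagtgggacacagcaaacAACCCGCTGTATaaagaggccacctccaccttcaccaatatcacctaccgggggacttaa
Itgb5: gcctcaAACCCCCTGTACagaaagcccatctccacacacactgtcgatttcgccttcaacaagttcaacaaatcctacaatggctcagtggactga
The motif occurred 2 times in the last 180 coding bases of either Itgb1 end, 1 time in Itgb3, Itgb5 and Itgb6, and 0 times in Itgb8. No match says only that these codons are not in that stretch. NXXY motifs without the proline were neither marked nor counted, and the Itgb3 and Itgb5 ends printed above hold such motifs.

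Total estimated counts were 49027885 to 72584877 per library. SB273005 replicate 2 stood apart, with 17.9% of its counts from mitochondrial genes, against 4.10% to 10.2% in the other libraries, and 548 FPKM of the smooth muscle actin gene Acta2. FPKM is the authors' level of a gene, its fragments divided by length and by library total. The MHC class II gene H2-Ea, silent in the C57BL/6 strain, had 0 counts in all 3 PBS libraries and in SB273005 replicates 1 to 3, and 83 to 130 counts in the other 8 libraries. All libraries carry the C57BL/6 label, so those 8 are at odds with it, and the reason was not tested. Any difference of the BAPN or Cilengitide groups from PBS cannot be told apart from this split of the libraries, and for SB273005 vs. PBS values are also given within the libraries that lack H2-Ea counts. Differences of SB273005 from BAPN or Cilengitide are largely tied to the split too. Only SB273005 replicate 4 has H2-Ea counts as those groups do. Smooth muscle markers were present in every library, with a summed level of 1162 to 6962 FPKM over 6 genes in SB273005 aortas, 6044 to 7990 FPKM in Cilengitide aortas, 6912 to 10540 FPKM in BAPN aortas and 8895 to 10584 FPKM in PBS aortas.

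Itgb1 and Itgb5 were the abundant β chains in these aortas, Itgb3 and Itgav were present at lower levels, and Itgb8 and Itgb6 were close to the lower end of what was measured. Levels of different genes were set side by side as FPKM summed over the transcripts of a gene, which is per length of each transcript, because the gene table divides by a longer merged length that brings Itgav to 0.654 times its transcript sum. On that scale the medians over 14 libraries were 381 FPKM for Itgb1, 329 for Itgb5, 14.8 for Itgb3, 14.5 for Itgav, 1.11 for Itgb8 and 0.333 for Itgb6. Itgb1 exceeded Itgb5 in 1 of 4 SB273005 libraries, 2 of 3 Cilengitide libraries, 4 of 4 BAPN libraries and 3 of 3 PBS libraries, so the order of these neighbours was not the same in every library. Itgb3 and Itgav also changed places. Itgb3 was below Itgav in all 4 SB273005 libraries, at 0.575 to 0.890 times its level, and above it in 3 of 3 Cilengitide libraries, 3 of 4 BAPN libraries and 3 of 3 PBS libraries, where the ratio reached 1.97. Itgb5 had 17.4 to 30.5 times the transcript level of Itgav in every library.

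Itgb3, the β chain of αVβ3, was lowest in SB273005 aortas and highest in PBS aortas. The gene lies at chr11:104608000-104670476 on the plus strand and has 1 transcript in the deposited tables. Its gene level was 13.1, 5.44, 9.08 and 10.9 FPKM in the SB273005 aortas, 14.7, 14.4 and 14.3 FPKM in the Cilengitide aortas, 16.6, 15.6, 13.6 and 15.5 FPKM in the BAPN aortas and 20.9, 22.6 and 17.5 FPKM in the PBS aortas. Every SB273005 library lay below every library of the other 3 groups, and every BAPN and Cilengitide library lay below every PBS library.

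In SB273005 vs. PBS aortas Itgb3 fell by 1.03 on the log2 scale (SE 0.21, 95% interval -1.47 to -0.58), with an adjusted p of 0.00867 by edgeR's quasi-likelihood test with Benjamini-Hochberg adjustment over all genes. It was the only call among the 4 members tested in any of the 6 comparisons. In that comparison 13.2% of the 13294 genes tested passed and 5.38% passed as lower, and FPKM of the groups did not overlap, lower in SB273005, for 14% of genes, so 1 call among 4 members says nothing about the family as a group. Without SB273005 replicate 2 the difference was -0.86 (adjusted p = 0.00534). The call was lost without PBS replicate 2 (-0.91, adjusted p = 0.05002), among the 3 SB273005 and 3 PBS libraries with no H2-Ea counts (-1.08, adjusted p = 0.0990), and when only these groups were fitted (-1.02, adjusted p = 0.0732).

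Itgb3 values in the other comparisons did not pass. SB273005 differed from BAPN by -0.62 on the log2 scale (95% interval -1.04 to -0.21, adjusted p = 0.197 by edgeR) and from Cilengitide by -0.58 (95% interval -1.02 to -0.14, adjusted p = 0.500). Here the background of non-overlapping genes on the lower side was 6.3% of genes for SB273005 vs. BAPN, 3.87% for SB273005 vs. Cilengitide, 18.4% for Cilengitide vs. PBS and 7.56% for BAPN vs. PBS. Against PBS, the differences were -0.45 for Cilengitide (95% interval -0.93 to 0.03, adjusted p = 0.278) and -0.41 for BAPN (95% interval -0.85 to 0.04, adjusted p = 0.484), and Cilengitide vs. BAPN stood at -0.04 (95% interval -0.49 to 0.40). The only SB273005 library with H2-Ea counts, replicate 4 at 10.9 FPKM, lay below the 4 BAPN and 3 Cilengitide libraries that share them, at -0.44 vs. BAPN (adjusted p = 0.533, with the spread pooled over the groups, the lone library being assumed to vary like the others).

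Markers of other cells moved beside Itgb3. Of 6 smooth muscle markers, 3 fell in SB273005 vs. PBS aortas (Lmod1, Smtn and Myh11), where 5.38% of all genes did. The list's median log2 difference was -1.12. In the same comparison 6 of 6 macrophage markers, 3 of 3 neutrophil markers and 3 of 6 fibroblast markers rose, where 7.82% of all genes did. With a library left out, the smooth muscle count was 0 to 5 and the fibroblast count 0 to 3. The macrophage count was 4 to 6 and the neutrophil count stayed at 3. None of the 6 smooth muscle or 6 macrophage markers was below 1 FPKM in any library, and the summed macrophage level was 369 to 885 FPKM in SB273005 aortas and 117 to 246 FPKM in PBS aortas. The summed neutrophil level was 3.98 to 8.36 FPKM in SB273005 aortas and only 0.234 to 0.622 FPKM in PBS aortas. The neutrophil markers were thus below 1 FPKM in every PBS library. They entered the test, which asked for 1 FPKM in 3 libraries, only through BAPN-treated libraries, which favoured a rise. Of 6 platelet markers 2 were tested, and Pf4, a platelet chemokine, rose by 1.29 (adjusted p = 0.00388 by edgeR), at 13.6 to 20.4 FPKM in SB273005 aortas and 6.69 to 8.13 FPKM in PBS aortas. The list's summed level, most of it Pf4, was 17.4 to 22.9 FPKM in SB273005 aortas and 8.17 to 9.20 FPKM in PBS aortas. Gp1bb was at 0.0671 to 2.50 FPKM in SB273005 aortas and 0.303 to 0.856 FPKM in PBS aortas. Gp9 was at 0 to 0.297 and 0 to 0.193 FPKM, and the groups overlapped for both genes. Itga2b, the αIIb chain that shares Itgb3 on platelets, was at 0.335 to 1.20 FPKM in SB273005 aortas and 0.442 to 0.468 FPKM in PBS aortas, again with overlap. The platelet genes named here were singled out after their values were seen. In bulk tissue fewer cells of a type and less RNA per cell cannot be told apart, and the part of these cells in the Itgb3 difference was not tested.

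**Figure D1:**
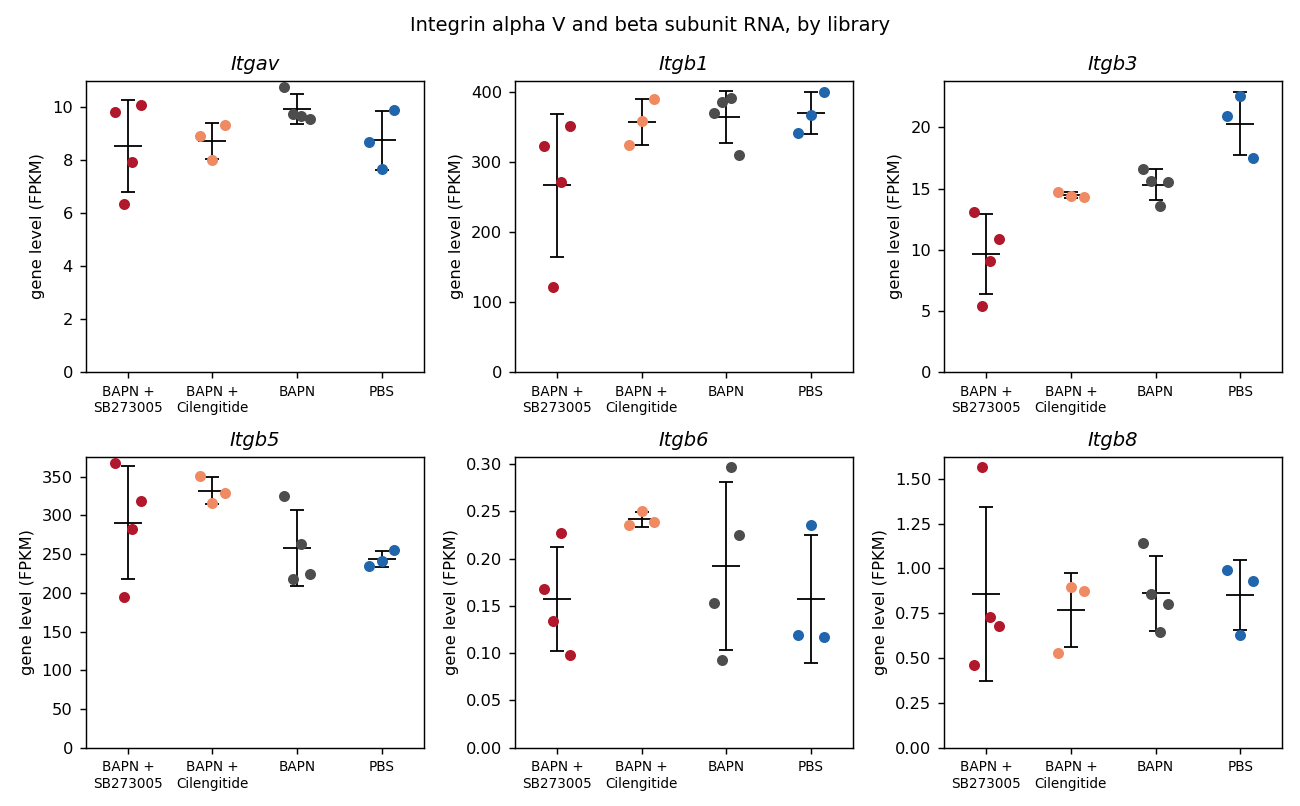
Gene level in FPKM on the y axis (each panel starts at 0 and has its own scale) for the 6 members, with groups along the x axis. Points are libraries, and the black bar and whiskers are the mean and SD. Itgb3 was lowest in the 4 SB273005 libraries (5.44 to 13.1 FPKM) and highest in the 3 PBS libraries (17.5 to 22.6 FPKM).

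Itgb5, the β chain of αVβ5 (chr16:33829665-33949338, plus strand), stood higher in both inhibitor groups than in PBS aortas, where Itgb3 stood lower, but passed in no comparison. Its gene level was 367, 194, 283 and 319 FPKM in the SB273005 aortas, 351, 316 and 330 FPKM in the Cilengitide aortas, 325, 218, 263 and 224 FPKM in the BAPN aortas and 235, 241 and 255 FPKM in the PBS aortas. All 3 Cilengitide libraries lay above all 3 PBS libraries, which was so for 13.5% of genes, and the other pairs of groups overlapped. The Cilengitide vs. PBS difference was 0.49 on the log2 scale (SE 0.21, 95% interval 0.04 to 0.93, adjusted p = 0.205 by edgeR), where 5.58% of genes passed. It passed when only these groups were fitted (0.49, adjusted p = 0.0344). SB273005 vs. PBS stood at 0.31 (95% interval -0.11 to 0.73) and Cilengitide vs. BAPN at 0.41 (95% interval -0.01 to 0.82, adjusted p = 0.795).

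Itgav, the shared α chain (chr2:83724397-83806916, plus strand), varied least of the members in level. Its gene level was 9.82, 6.33, 7.94 and 10.1 FPKM in the SB273005 aortas, 8.91, 8 and 9.32 FPKM in the Cilengitide aortas, 10.8, 9.73, 9.69 and 9.58 FPKM in the BAPN aortas and 8.70, 7.67 and 9.90 FPKM in the PBS aortas. The groups overlapped except that all Cilengitide libraries lay below all BAPN libraries, as for 7.82% of genes. The 6 log2 differences lay between -0.17 for SB273005 vs. BAPN (95% interval -0.45 to 0.11) and 0.19 for BAPN vs. PBS (95% interval -0.11 to 0.49), and none passed.

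Itgb1, the β chain of the collagen, laminin and fibronectin receptors as well as of αVβ1 (chr8:128685654-128733200, plus strand), was even in 10 libraries outside the SB273005 group. Its gene level was 323, 122, 272 and 352 FPKM in the SB273005 aortas, 325, 359 and 390 FPKM in the Cilengitide aortas, 371, 386, 392 and 310 FPKM in the BAPN aortas and 342, 368 and 401 FPKM in the PBS aortas. SB273005 replicate 2 was far below all others, and the groups overlapped in every comparison. The differences of SB273005 were -0.43 vs. PBS (SE 0.26, adjusted p = 0.313 by edgeR), -0.40 vs. BAPN (adjusted p = 0.425) and -0.41 vs. Cilengitide (adjusted p = 0.637). Without replicate 2 they were -0.21 vs. PBS, -0.17 vs. BAPN and -0.19 vs. Cilengitide.

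Itgb8 and Itgb6, the β chains of the αV dimers that activate TGF-β, were too low to enter the test, which asked for at least 1 FPKM in at least 3 libraries. Itgb8 (chr12:119158022-119238802, minus strand) was at 0.459, 1.56, 0.731 and 0.678 FPKM in the SB273005 aortas, 0.529, 0.895 and 0.876 FPKM in the Cilengitide aortas, 1.14, 0.854, 0.644 and 0.801 FPKM in the BAPN aortas and 0.993, 0.629 and 0.930 FPKM in the PBS aortas. Its highest value was in SB273005 replicate 2, and the 4 groups overlapped. Itgb6 (chr2:60598292-60722643, minus strand), an epithelial β chain, was at 0.168, 0.134, 0.227 and 0.0986 FPKM in the SB273005 aortas, 0.236, 0.250 and 0.238 FPKM in the Cilengitide aortas, 0.153, 0.0927, 0.298 and 0.225 FPKM in the BAPN aortas and 0.120, 0.235 and 0.117 FPKM in the PBS aortas. All Cilengitide libraries lay above all SB273005 and all PBS libraries, the closest Cilengitide and PBS libraries being at 0.2360 and 0.2353 FPKM, and the other pairs of groups overlapped. Among the genes tested, which leave out Itgb6, 13.5% lay higher in Cilengitide than in PBS aortas without overlap. For SB273005 below Cilengitide the share was 3.87%. Itgb6 had 41 to 140 estimated counts, so it was detected in each library at a low level.

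**Figure D2:**
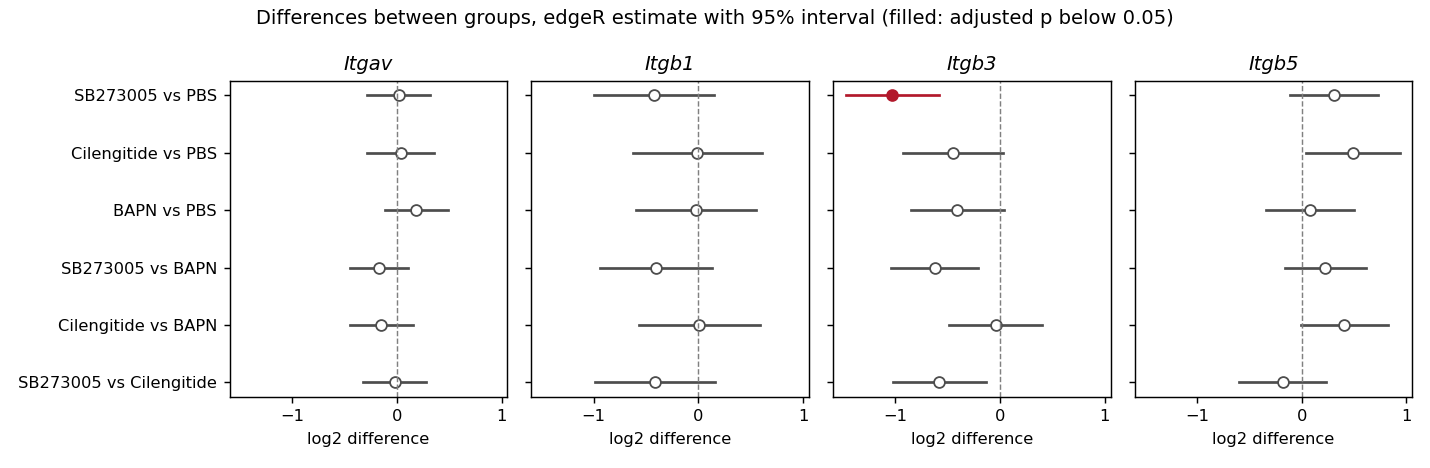
Log2 difference between groups on the x axis with its 95% interval, for the 4 members tested (panels) and the 6 comparisons (rows, first-named group minus second-named group). Filled red points have an adjusted p below 0.05. This held for Itgb3 in SB273005 vs. PBS, at -1.03.

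The comparisons are not independent of each other, since they share the same PBS, BAPN or Cilengitide libraries. Outside SB273005 vs. PBS, no member passed by edgeR in the other 5 comparisons, nor did any by DESeq2. At an unadjusted p under 0.05 there were 1 of 4 members in Cilengitide vs. PBS (Itgb5), 1 in SB273005 vs. BAPN (Itgb3), 1 in SB273005 vs. Cilengitide (Itgb3) and 0 in the other 2. The share of all genes under that p was 20.2% in Cilengitide vs. PBS, 16.1% in SB273005 vs. BAPN, 9.21% in SB273005 vs. Cilengitide, 6.07% in Cilengitide vs. BAPN and 12% for BAPN against PBS. After adjustment, 0.233% of all genes passed in BAPN vs. PBS, 0.0301% in SB273005 vs. BAPN, and 0.0% in both Cilengitide vs. BAPN and SB273005 vs. Cilengitide. For the inhibitors against each other the intervals of SB273005 minus Cilengitide were -0.32 to 0.28 for Itgav, -0.99 to 0.16 for Itgb1 and -0.60 to 0.24 for Itgb5, and a p that misses the threshold does not show that the drugs act alike.

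A ratio of subunits within a library does not depend on how the library was scaled. Ratios here use the gene level in FPKM, at 0.980 times the transcript sum for Itgb3 and 0.856 times for Itgb5. They serve to compare groups, and their size differs from that of ratios of transcript sums. For each FPKM of Itgb3 there were 28.0 to 35.8 FPKM of Itgb5 in SB273005 aortas, 22.0 to 23.8 in Cilengitide aortas, 14 to 19.5 in BAPN aortas and 10.7 to 14.6 in PBS aortas. The groups did not overlap except BAPN and PBS. SB273005 replicate 2 had the value of 35.8, and the other 3 SB273005 libraries lay at 28.0 to 31.1. Among these, replicate 4, the only SB273005 library with H2-Ea counts, stood at 29.3. The log2 ratio of Itgb3 over Itgb5 averaged -4.95 ± 0.15 in SB273005 aortas (SD, n = 4), -4.52 ± 0.06 in Cilengitide aortas (SD, n = 3), -4.06 ± 0.26 in BAPN aortas (SD, n = 4) and -3.59 ± 0.24 in PBS aortas (SD, n = 3). SB273005 vs. BAPN differed by -0.89 (two-sided exact permutation p = 0.0286), the smallest p that 4 against 4 allows. SB273005 vs. PBS differed by -1.36, Cilengitide vs. BAPN by -0.46 and SB273005 vs. Cilengitide by -0.43 (exact permutation p = 0.0571 each, the smallest that 4 against 3 allows), and Cilengitide vs. PBS by -0.93 (exact permutation p = 0.1, the smallest for 3 against 3). BAPN vs. PBS differed by -0.46 (exact permutation p = 0.171).

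After adjustment over the 18 ratio tests none passed 0.05, and the lowest adjusted p was 0.129. Leaving out any 1 library kept the SB273005 vs. PBS ratio difference between -1.5 and -1.27. The sum of Itgb3, Itgb5, Itgb6 and Itgb8 over Itgav was higher in SB273005 than in BAPN aortas by 0.36 on the log2 scale (exact permutation p = 0.0286, adjusted 0.129). In Cilengitide it was higher than in BAPN aortas by 0.55 (exact permutation p = 0.0571, adjusted 0.129), and neither pair overlapped. Most of this sum is Itgb5, with a mean gene level of 280 FPKM over the 14 libraries against 14.6 FPKM for Itgb3. The ratio therefore mainly follows Itgb5. Itgb1 over Itgav was lower in SB273005 than in PBS aortas by a difference of -0.52 (exact permutation p = 0.0571, adjusted 0.129), and by -0.32 without SB273005 replicate 2, which was far from the other 3 libraries.

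**Figure D3:**
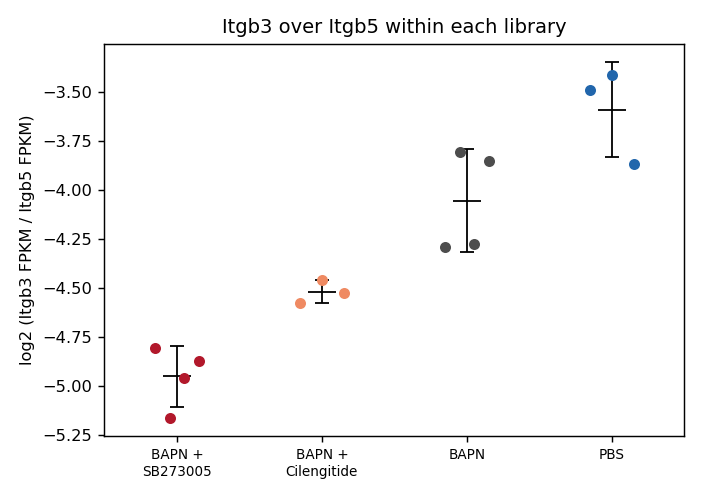
Log2 of Itgb3 FPKM over Itgb5 FPKM within each library (y axis), by group (x axis), with the group mean and SD in black. The 4 SB273005 libraries lie below all others, the 3 Cilengitide libraries next, and the BAPN and PBS libraries overlap.

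In the transcripts table Itgav and Itgb1 were nearly all 1 coding transcript each, with 98.8% to 99.9% of the FPKM of Itgav and 97.5% to 99.99% of that of Itgb1. Itgb5 was split over coding transcripts that share most of their exons, with 35.0% to 52.7% in the leading one, and how the authors' estimate divided the fragments among them is uncertain. Across 18 exact permutation tests of the leading transcript's share in Itgav, Itgb1 and Itgb5, none passed after adjustment and 1 had a p under 0.05. That one was Itgb1 in SB273005 vs. BAPN, where the leading share averaged 99.2% in SB273005 aortas and 99.9% in BAPN aortas (exact permutation p = 0.0286, adjusted 0.514). The difference was -0.73 percentage points, -0.17 without SB273005 replicate 2 and -0.15 as a share of estimated counts.

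In 11 of 14 libraries the largest part of the rest of Itgb1 was a short transcript, ENSMUST00000149116, and in the other 3 it was ENSMUST00000124826, annotated as subject to nonsense-mediated decay. ENSMUST00000149116 holds an exon of 81 bases absent from the leading transcript, at chr8:128726983-128727063. This exon holds its own stop codon and encodes the β1D end printed above, the form of β1 known from heart and skeletal muscle. The transcript's other exons lie inside exons of the leading transcript, so how the authors' estimate divided the shared fragments is uncertain. The transcript was looked at after its values were seen and is described without a test. It stood at 0.629, 3.35, 0.798 and 0.111 FPKM in the SB273005 aortas, 0.252, 0.212 and 0.0484 FPKM in the Cilengitide aortas, 0.0909, 0.248, 0.110 and 0.198 FPKM in the BAPN aortas and 0.577, 2.73 and 0.800 FPKM in the PBS aortas. The 6 libraries with no H2-Ea counts, from both the SB273005 and the PBS group, were all above the other 8, and SB273005 replicate 4 lay with the BAPN and Cilengitide libraries. The transcript's estimated counts were 24 to 158 in those 6 libraries and only 3 to 13 in the other 8. Myh7, the slow myosin heavy chain of heart and slow skeletal muscle, parted the libraries the same way, at 4.51 to 7.54 FPKM in those 6 libraries and 0.0329 to 0.261 FPKM in the other 8. Of 6 listed cardiomyocyte markers, which do not include Myh7, Myh6 did so too, at 21.4 to 47.0 FPKM in the 6 libraries and 0.736 to 10.6 FPKM in the other 8, and the other 5 overlapped. The list's summed level was 36.0 to 135 FPKM in the 6 libraries and 11.96 to 85.1 FPKM in the other 8. Myh7 was chosen after its values were seen. The skeletal actin gene Acta1 overlapped, at 13.5 to 963 FPKM in the 6 libraries and 66.4 to 602 FPKM in the other 8. Where the muscle transcript came from was not tested.

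**Figure D4:**
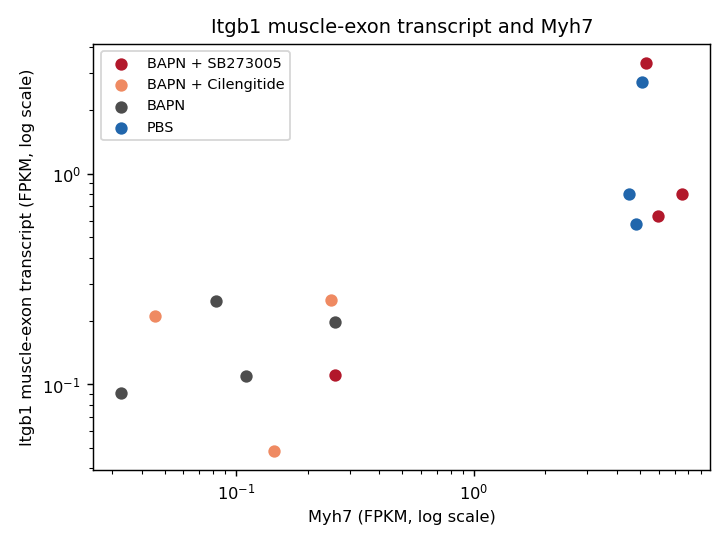
FPKM of the Itgb1 transcript with the muscle exon (y axis, log scale) against FPKM of Myh7 (x axis, log scale), 1 point per library, coloured by group. The 3 PBS libraries and 3 of the 4 SB273005 libraries lie at 0.577 to 3.35 FPKM, the other 8 at 0.0484 to 0.252 FPKM.

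Genes whose level followed a member most closely over the 14 libraries were found by the Pearson r of log2 CPM, a description in which all libraries share their groups and depth. For Itgb3 these were Nfu1 (r = 0.965), an iron-sulfur cluster protein, Anapc11 (r = 0.959), a subunit of the anaphase-promoting complex, and Cops6 (r = 0.937), a COP9 signalosome subunit. For Itgb5 they were Myo1d (r = 0.946), a myosin, Fbln5 (r = 0.939), an elastic fibre protein, and Bgn (r = 0.935), a matrix proteoglycan. For Itgav they were Tmed7 (r = 0.968), a cargo receptor of early secretion, Uso1 (r = 0.937), a vesicle tether, and Ikbip (r = 0.930). For Itgb1 they were Ptpn11 (r = 0.982), a tyrosine phosphatase, Wdr1 (r = 0.982) and Pls3 (r = 0.981), both actin regulators. Without SB273005 replicate 2 those of Itgb1 dropped to 0.886, 0.896 and 0.899, while Fbln5 stood at 0.971 with Itgb5. None of the members was among the genes most like another.

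Several matrix ligands of αV integrins rose in SB273005 and in Cilengitide aortas relative to PBS aortas. Of 16 listed ligands, 14 were tested. In SB273005 vs. PBS aortas 7 rose, where 7.82% of all genes did, and 1 fell, with a median log2 difference of 0.86 over the list, against 0.02 over all genes. In Cilengitide vs. PBS 5 rose, where 3.98% of all genes did, and 0 fell (median 0.66, against -0.02), and in BAPN vs. PBS 0 passed by edgeR (median 0.55, against 0.00). No ligand passed in the 3 comparisons among BAPN-treated groups.

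Spp1, which encodes osteopontin, an RGD ligand of αVβ3, was at 183, 145, 33.0 and 74.7 FPKM in the SB273005 aortas, 323, 129 and 64.4 FPKM in the Cilengitide aortas, 121, 40.1, 41.3 and 38.3 FPKM in the BAPN aortas and 8.76, 6.32 and 6.34 FPKM in the PBS aortas. All libraries of the 3 BAPN-treated groups lay above all PBS libraries. Such a gap held for 13.5% of genes in Cilengitide vs. PBS, and the shares for SB273005 and BAPN vs. PBS are not given here. It rose by 4.01 ± 0.72 (SE) in SB273005 vs. PBS (adjusted p = 0.00580 by edgeR) and by 4.63 ± 0.76 in Cilengitide vs. PBS (adjusted p = 0.00723), and stood 3.08 higher in BAPN vs. PBS without passing (adjusted p = 0.0663).

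Thbs1, which encodes thrombospondin-1, an activator of TGF-β, rose by 3.75 in SB273005 vs. PBS and by 4.28 in Cilengitide vs. PBS. Tnc (tenascin-C, a matrix protein of remodelling tissue) rose by 1.5 and 2.06, Fn1 (fibronectin) by 1.62 and 1.94, and Fbn1 (fibrillin-1, the microfibril protein mutated in Marfan syndrome) by 1.00 and 1.13 in the same comparisons. Tgfb3, a TGF-β with an RGD latency peptide, and Ccn2, a matricellular protein induced by TGF-β, rose in SB273005 vs. PBS alone, by 0.71 and 1.39, while their Cilengitide vs. PBS values of 0.67 and 1.38 did not pass (adjusted p = 0.0903 and 0.0815). SB273005 vs. Cilengitide sets the inhibitors against each other in these genes. None passed there, nor did any of the 13294 genes tested, so this does not show that the inhibitors act alike on them.

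Vtn, which encodes vitronectin, the plasma ligand after which αVβ3 and αVβ5 were first called vitronectin receptors, fell by 2.80 in SB273005 vs. PBS (adjusted p = 0.0475), but the groups overlapped. It was at 0.800, 0.566, 1.44 and 0.650 FPKM in the SB273005 aortas and 14.4, 4.39 and 0.581 FPKM in the PBS aortas, so 2 PBS libraries carried the difference.

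The ligand count in SB273005 vs. PBS, 8 in all, was 5 with the H2-Ea split as a term and 4 among the libraries with no H2-Ea counts. It was 2 without PBS replicate 2, 3 without PBS replicate 1, 4 without Cilengitide replicate 2 or SB273005 replicate 1, and 5 without BAPN replicate 4, Cilengitide replicate 3 or SB273005 replicate 4. With the H2-Ea split as a term the Cilengitide vs. PBS count of 5 became 0. It was 2 when PBS replicate 2 or Cilengitide replicate 1 was left out and 3 when PBS replicate 1 or Cilengitide replicate 2 was. Macrophage and fibroblast markers rose in the same comparisons, and their part in the ligand differences was not tested.

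**Figure D5:**
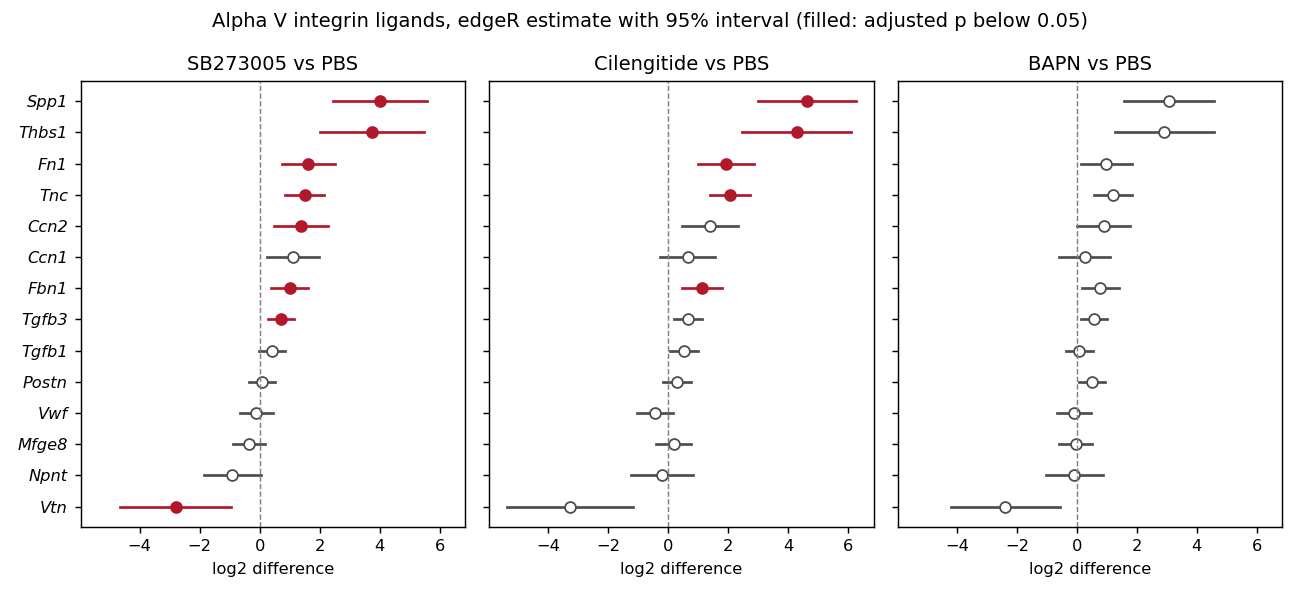
Log2 difference from PBS on the x axis with its 95% interval for the 14 αV ligands tested (rows), in SB273005, Cilengitide and BAPN aortas (panels). Filled red points have an adjusted p below 0.05: 8 genes in SB273005 vs. PBS, 5 in Cilengitide vs. PBS and 0 in BAPN vs. PBS. Spp1 and Thbs1 have the largest values in all 3 panels.

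Around the TGF-β that αV integrins release, few genes passed. Of 10 genes for TGF-β latency and receptors, all tested, Tgfb3 rose in SB273005 vs. PBS and Ltbp3, a latent TGF-β binding protein, rose by 0.60 in Cilengitide vs. PBS (adjusted p = 0.0286 by edgeR). These were 1 of 10 genes each, where 7.82% of all genes rose in SB273005 vs. PBS and 3.98% for Cilengitide against PBS. The list's median difference was 0.40 in SB273005 vs. PBS, against 0.02 over all genes. Each of these counts of 1 was 0 without PBS replicate 2, with the H2-Ea split as a term, and without several other single libraries (PBS replicate 3 or any Cilengitide replicate for Ltbp3, and BAPN replicate 2, Cilengitide replicate 2 or SB273005 replicate 1 or 4 for Tgfb3). It was 2 without SB273005 replicate 2 in SB273005 vs. PBS and 2 without BAPN replicate 4 in Cilengitide vs. PBS.

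Of 8 genes known to respond to TGF-β, 3 rose in SB273005 vs. PBS, where 7.82% of all genes did, and 0 fell, where 5.38% did (median 1.01, against 0.02 over all genes). These were Ltbp2, a microfibril-associated protein, by 2.08 (adjusted p = 0.00464 by edgeR), Col1a1, a collagen I chain, by 1.48 and Ccn2 by 1.39. In Cilengitide vs. PBS Ltbp2 rose by 2.06 and Col1a1 by 1.52, 2 of 8 genes where 3.98% of all genes rose. In BAPN vs. PBS 0 passed, with a list median of 0.77. Ltbp2 was at 232, 111, 110 and 128 FPKM in the SB273005 aortas, 167, 151 and 115 FPKM in the Cilengitide aortas, 119, 54.8, 69.4 and 44.1 FPKM in the BAPN aortas and 33.5, 34.7 and 38.8 FPKM in the PBS aortas, so all BAPN-treated libraries were above all PBS libraries. In Cilengitide vs. PBS 13.5% of genes lay higher without overlap. The count of 3 was 1 without PBS replicate 1, PBS replicate 2 or SB273005 replicate 1 and within the libraries with no H2-Ea counts. The count of 2 in Cilengitide vs. PBS was 0 without PBS replicate 2 or with the H2-Ea split as a term, 5 without SB273005 replicate 2, and 1 without PBS replicate 1 or 3, BAPN replicate 3 or 4, Cilengitide replicate 1 or 2 or SB273005 replicate 4. In BAPN vs. PBS it was 2 without SB273005 replicate 2.

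Inside the cell, 25 of 26 genes for integrin activation and adhesion were tested, and in SB273005 vs. PBS 3 rose, where 7.82% of all genes did, and 2 fell, where 5.38% did, with a list median of -0.05, against 0.02 over all genes. These shares of the list are near those of all genes and are no result about the list. Ptk2b, which encodes the focal adhesion kinase relative PYK2, rose by 1.86 (adjusted p = 0.00663 by edgeR), Tln2 (talin-2, an integrin activator) by 0.70 and Ptk2 (focal adhesion kinase) by 0.42. Flna (filamin A, an actin cross-linker that binds β tails) fell by 1.03 and Ilk (integrin-linked kinase) by 0.67. In Cilengitide vs. PBS Ptk2b alone passed, higher by 2.03, where 3.98% of all genes rose. Flna was at 354, 189, 553 and 496 FPKM in the SB273005 aortas and 843, 810 and 867 FPKM in the PBS aortas, without overlap and lowest in SB273005 replicate 2. In this comparison 14% of genes lay lower in SB273005 without overlap. The count of 5 was 2 without any one of the PBS replicates, Cilengitide replicate 2 or SB273005 replicate 1 or within the libraries with no H2-Ea counts, and 3 without BAPN replicate 2. The count of 1 in Cilengitide vs. PBS was 0 without PBS replicate 2 or with the H2-Ea split as a term and 2 without PBS replicate 1 or SB273005 replicate 1 or 2.

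Among the 21 other integrin chains 15 were tested, and in SB273005 vs. PBS 3 rose, where 7.82% of all genes did, and 1 fell, where 5.38% did (median -0.06, against 0.02 over all genes). Without PBS replicate 1 the count that rose was 6. The count that fell was 2 without SB273005 replicate 2 or 4 and 0 without any other library except BAPN replicate 1 or Cilengitide replicate 1, and within the libraries with no H2-Ea counts. Itgam, the αM chain of myeloid cells, rose by 2.72, Itga6, a laminin-binding chain, by 2.82 and Itga11, a collagen-binding chain of fibroblasts, by 3.06, while Itga3, also a laminin-binding chain, fell by 0.79 (adjusted p = 0.0400 by edgeR). Itgam, Itga11 and Itga6 also rose in Cilengitide vs. PBS, by 2.86, 3.10 and 2.17, where 3.98% of all genes rose, a count of 3 that was 0 without PBS replicate 2 or with the H2-Ea split as a term and 1 without Cilengitide replicate 1. Itga11 was at 20.7, 10.4, 8.67 and 10.6 FPKM in the SB273005 aortas, 22.8, 8.92 and 7.76 FPKM in the Cilengitide aortas, 8.21, 2.00, 2.52 and 1.80 FPKM in the BAPN aortas and 0.961, 1.68 and 2.01 FPKM in the PBS aortas. Both inhibitor groups lay above PBS, and the BAPN group overlapped with Cilengitide and PBS. In Cilengitide vs. PBS 13.5% of genes lay higher without overlap. Itga6 was at 4.96, 6.77, 4.02 and 1.13 FPKM in the SB273005 aortas and 0.472, 0.583 and 0.798 FPKM in the PBS aortas. It entered the test only through BAPN-treated libraries, which favoured a rise over PBS. All of these α chains but Itgam pair with β1, whose own gene did not pass in any comparison.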

How the data were processed

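RNA was extracted with Trizol and then reverse-transcribed with SuperScript II (labels' protocols). The submitters' processing notes name HISAT2 2.2.1, StringTie 2.1.6 and mm10. Annotation release and strandedness are not given in the sources used. The deposited tables give FPKM and whole-number estimated counts per gene and transcript for each of 14 libraries. Because these counts were estimated, the count model is approximate. In 99.995% of values a gene's deposited count was the total of its transcripts.

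Genes with at least 1 FPKM in at least 3 libraries were tested (13294 genes, at least 98.84% of each library's counts) with edgeR 4.0.16 in R 4.3.3 (TMM, quasi-likelihood, all libraries in 1 fit, Benjamini-Hochberg over all genes at 0.05). SEs were worked back from the F statistic, so intervals are approximate. Ratios and transcript shares were compared by two-sided exact permutation tests with scipy 1.17.1. Replicates differed by more than sampling noise in all 18 pairs. The script was tested on simulated data. The members, lists and tests were chosen with earlier results of these data known. Named list genes are the 4 with the smallest p in a comparison and all genes of counts of 5 or fewer. The further ligands were named after their values were seen. Alternatives were DESeq2 1.42.0, limma 3.58.1, other scalings and filters, a replicate block, a term for libraries with H2-Ea counts, fits within such libraries and leaving out each library.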

Additional observations from a re-analysis of the deposited data

Results flagged for a closer look

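Of 26 groups of 4 libraries examined, 3 held a library far from the others of its group, where chance gives about 1 in 20 groups. The gap to the nearest library, as a share of the whole range, was 0.870 for Itgav FPKM in the BAPN group, where replicate 1 was highest at 10.8 FPKM. It was 0.898 for the log2 ratio of Itgb1 over Itgav in the SB273005 group, where replicate 2 was lowest, and 0.964 for the share of the leading Itgb1 transcript in that group, where replicate 2 was again lowest at 97.5%. The same library had the highest share of mitochondrial counts, 17.9%, and its part in these values was not tested.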

How the results depend on the processing

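The Itgb3 difference in SB273005 vs. PBS kept its sign under every alternative run (-1.21 to -0.86 with a library left out). It no longer passed with only the groups compared (-1.02), within the libraries with no H2-Ea count (-1.08) and without PBS replicate 2, so the count of members past the threshold was 0 there and 0 to 1 over the left-out libraries. With only the groups compared, Itgb5 in Cilengitide vs. PBS passed (0.49), a count of 1. The cause was not tested.

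Differences near 0 that never passed changed sign. With the H2-Ea split as a term, Itgav stood at -0.15 in BAPN vs. PBS, -0.295 in Cilengitide vs. PBS, -0.072 in SB273005 vs. PBS, 0.074 in SB273005 vs. BAPN and 0.22 in SB273005 vs. Cilengitide, Itgb5 at -0.11 in BAPN vs. PBS and Itgb1 at 0.0033 in SB273005 vs. BAPN. Itgav in SB273005 vs. PBS was also -0.045, -0.052, -0.085 and -0.030 by limma on log2(FPKM + 1), log2(FPKM + 0.1), log2(TPM + 1) and quantile-normalized values, -0.032 with no filter and -0.056 within the libraries with no H2-Ea count. Within those with H2-Ea counts, a setting chosen after seeing the data, Itgav was 0.071 in SB273005 vs. BAPN and 0.21 in SB273005 vs. Cilengitide, and Itgb1 was 0.0002 in SB273005 vs. BAPN. By limma on log2(TPM + 1) Itgb1 was 0.047 in BAPN and 0.15 in Cilengitide vs. PBS, and Itgb3 0.047 in Cilengitide vs. BAPN. Itgb1 in Cilengitide vs. BAPN was -0.0256, -0.0257 and -0.044 by the other limma settings and -0.0012 with the 5 FPKM filter, and Itgav in SB273005 vs. Cilengitide 0.0090 with that filter. The share of the leading Itgav transcript in SB273005 vs. BAPN was -0.0072 percentage points by estimated counts.

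Leaving out each library gave -0.11 to 0.057 for Itgb1 and -0.038 to 0.15 for Itgb5 in BAPN vs. PBS. In Cilengitide vs. PBS it gave -0.022 to 0.14 for Itgav and -0.099 to 0.062 for Itgb1. It gave -0.072 to 0.12 for Itgav in SB273005 vs. PBS, -0.070 to 0.083 for Itgb1 in Cilengitide vs. BAPN and -0.11 to 0.078 for Itgav in SB273005 vs. Cilengitide. The log2 ratio of Itgb1 over Itgav in Cilengitide vs. PBS ran from -0.12 to 0.035. The share of the leading transcript ran, in percentage points, from -0.020 to 0.48 in BAPN vs. PBS, -0.22 to 0.28 in Cilengitide vs. PBS and -0.34 to 0.025 in Cilengitide vs. BAPN for Itgav, from -0.70 to 0.056 in SB273005 vs. PBS for Itgb1, and from -0.53 to 3.87 in BAPN vs. PBS and -2.35 to 1.41 in SB273005 vs. Cilengitide for Itgb5.

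Ligands past the threshold in SB273005 vs. PBS numbered 3 with no filter, 5 by limma, 5 with the H2-Ea term, 4 within the libraries with no H2-Ea count and 2 to 7 with a library left out, and in Cilengitide vs. PBS 0 with that term and 2 to 6 with a library left out. TGF-β latency genes numbered 0 in both comparisons with no filter and with the term, 0 within the libraries with no H2-Ea count, and 0 to 2 with a library left out. TGF-β response genes numbered, in Cilengitide vs. PBS, 1 with no filter, 1 by limma, 0 with the term and 0 to 5 with a library left out, and, in SB273005 vs. PBS, 1 with no filter, 1 within the libraries with no H2-Ea count and 1 to 4 with a library left out. Adhesion genes numbered, in SB273005 vs. PBS, 1 with no filter, 3 by limma, 2 within the libraries with no H2-Ea count and 2 to 6 with a library left out, and, in Cilengitide vs. PBS, 0 with the term and 0 to 2 with a library left out. Other integrin chains that rose in SB273005 vs. PBS numbered 3 to 6 and those that fell 0 to 2 with a library left out. In all they numbered 0 in Cilengitide vs. PBS with the term, 0 to 3 there with a library left out, and 0 to 1 in BAPN vs. PBS and SB273005 vs. BAPN. In BAPN vs. PBS a left-out library gave 0 to 2 TGF-β response genes and 0 to 1 ligands or adhesion genes.

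Over all genes, calls numbered 1754 in SB273005 vs. PBS (498 to 2607 over the alternatives), 742 in Cilengitide vs. PBS (5 to 1465), 31 in BAPN vs. PBS (2 to 480) and 4 in SB273005 vs. BAPN (0 to 395). The 5 in Cilengitide vs. PBS came with the H2-Ea term, so list counts of 0 there say little about the lists.

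Replicate numbers are shared between groups, and 12 of 19 same-numbered pairs had deviations with r over 0.1 (range -0.16 to 0.34). Whether the numbers mark pairs was not settled, so the main fit did not use them. With the replicate block, Itgb3 in SB273005 vs. PBS was -1.09 (adjusted p = 0.0112 by edgeR), Itgav there was -0.024, and no member's call changed. Over all genes the block gave 141 calls in BAPN vs. PBS, 962 in Cilengitide vs. PBS and 1866 in SB273005 vs. PBS. The main fit gave 31, 742 and 1754. Of 14 libraries, 9 correlated best, outside their own group, with a library of their own number. Itgb6, Itgb8 and the muscle exon are limited by depth. Groups of 3 or 4 libraries limit the exact tests.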
